A study of Mus musculus with 18 samples.

Results

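The genes described here encode the protein parts of the cytosolic ribosome, followed in mouse colon RNA-Seq. They were chosen by name and level: protein-coding genes with an Rpl, Rps, Rplp or Rpsa symbol, kinases and names ending in -ps excluded, with a mean of at least 10 CPM (counts scaled to a common library total) over 9 mice. Of 47729 genes in the count table, 86 had such a name and 81 of them reached that level. The 81 comprised 45 proteins of the large subunit, 31 of the small subunit and 4 paralogs that resemble a standard subunit (Rpl22l1, Rpl36al, Rpl7l1 and Rps27l). Rps19bp1, the remaining gene, fits the naming rule but encodes a protein that binds Rps19 and is not part of the ribosome. Rpl36a-ps1, annotated as protein-coding with a mean of 10.7 CPM, was left out for its name.

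The study asked how forced expression of Claudin-2, a tight junction protein that forms cation-selective pores, bears on colitis-associated colon cancer. RNA-Seq covered the colons of 9 mice on a C57BL/6 background, 3 to a group. Control WT were wild-type mice labelled as controls (mice 1 to 3). AOM-DSS WT were wild-type mice that received 1 dose (10 mg/kg) of the carcinogen azoxymethane (AOM), followed by 3 rounds of the epithelial toxin dextran sulfate sodium (DSS) at 2.5% (mice 4 to 6). AOM-DSS Claudin-2TG mice carried a Villin-driven Cldn2 transgene, active in the intestinal epithelium, and received the same regimen (mice 7 to 9). A Control Claudin-2TG group was not analysed here, so the transgene was compared only under AOM-DSS, and against Control WT the genotype and the regimen cannot be told apart. The labels attach the AOM-DSS protocol text to the controls as well, and the controls were taken as untreated from their treatment label. Ages are not given in the labels.

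The cytosolic ribosome joins a small subunit, which reads the mRNA, and a large subunit, which makes the peptide bond and releases the new chain through a tunnel. Each ribosome holds about equal numbers of nearly all its proteins. Their mRNAs carry a short run of pyrimidines at the very start, the terminal oligopyrimidine (TOP) motif, through which mTOR and Larp1 adjust their translation when growth conditions change. In the colon, stem and progenitor cells at the crypt base make ribosomes at a high rate to renew the epithelium.

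Short stretches around the annotated transcription starts are shown because this pyrimidine run is the sequence feature by which the family is usually recognised. RefSeq start regions (build GRCm38.p6) matched 61 of the 81 genes. Runs of C or T bases were read onward from a C within 3 bases of the start, not counting any pyrimidines before that C. Such a run of at least 8 bases was found in 17 of the 61 (27.9%), against 1014 of 27025 genes in the same table (3.75%) and 1 of 66 ribosome biogenesis genes (1.52%). Counting only whole runs, opened by a C that follows A or G, the numbers were 6 of 61 (9.84%), 563 of 27025 (2.08%) and 1 of 66. The 30 bases below run from 10 bases before the start, 5′ to 3′ on the gene's strand, and capitals mark the longest run read in this way, whatever its length.
Rps27, chr3:90213629-90213658, minus strand: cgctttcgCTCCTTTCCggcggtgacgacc
Rpl13a, chr7:45128726-45128755, minus strand: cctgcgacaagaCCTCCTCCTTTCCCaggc
Rps6, chr4:86857348-86857377, minus strand: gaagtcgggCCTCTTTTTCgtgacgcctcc
Rpl15, chr14:18270967-18270996, minus strand: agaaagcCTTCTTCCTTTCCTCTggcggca
Rpl39, chrX:37085203-37085232, minus strand: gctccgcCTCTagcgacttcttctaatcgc
Rpl14, chr9:120571507-120571536, plus strand: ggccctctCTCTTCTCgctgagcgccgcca
Rps27, Rpl13a and Rpl39 were among the 5 genes that differed most between AOM-DSS Claudin-2TG and Control WT mice, Rpl39 with only 4 bases in capitals, or 5 with the pyrimidine directly before them. Rpl14, among those that differed least, has 8 bases in capitals that continue a run begun upstream of the window, 14 bases in all, and Rpl15 has 1 further pyrimidine before its capitals. The median log2 fold change between AOM-DSS Claudin-2TG and Control WT mice was 0.42 over the 17 genes with a run of at least 8 bases, of which 15 passed the test, and 0.41 over the 44 without, of which 34 passed. With whole runs only, the median was 0.50 over 6 genes, all of which passed, and 0.41 over 55, of which 43 passed. Of the 81 genes 79% passed, all as higher, against 3.92% of all genes called higher. The letters describe annotated starts and say nothing about where transcription began in these tissues.

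The genes were spread over 19 chromosomes, with 14 of the 81 on chromosome 7 and 4 on X (Rpl10, Rpl36a, Rpl39 and Rps4x). Small nucleolar RNAs, which guide the chemical modification of ribosomal RNA, were annotated within 30 of the 81 genes (37%), against 257 of 21697 protein-coding genes (1.18%). Rpl4 held 5 of them and Rpl13a held 4.

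Total counts per mouse ranged from 14142711 to 22262546, and the lowest gene of the set, Rps19bp1, had 332 to 540 counts in each mouse. Cldn2 was at 191, 259 and 245 CPM in Control WT, 119, 137 and 132 in AOM-DSS WT and 208, 218 and 251 in AOM-DSS Claudin-2TG mice. It was higher in AOM-DSS Claudin-2TG than in AOM-DSS WT mice (log2 fold change 0.78, SE 0.12, adjusted p = 0.0103), and reads of the transgene and the endogenous gene cannot be told apart. Xist, expressed from an inactive X chromosome, was at 214 CPM in Control WT mouse 1 and at or below 0.203 CPM in the other mice. Epithelial markers were detected throughout, with Krt8 between 4948 and 7527 CPM.

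The level that chose the genes is given as a description. Mean CPM (scaled by TMM, edgeR's trimmed mean method) ranged from 23.4 for Rps19bp1 to 1808 for Rplp0, the scaffold of the ribosomal stalk, with a median of 436. Rpl4, Rpl8 and Rps3 followed Rplp0. Per kilobase of exon, the order changed: Rplp1, a stalk protein with a short mRNA, led at 2300.5 CPM per kb, followed by Rps12 at 1568, Rpl8 at 1452, Rpl4 at 1256 and Rps15 at 1236. The 76 standard subunits spanned a 33.0-fold range per kilobase, from Rps19 at 69.7 CPM per kb upwards, although their proteins are made in about equal numbers. Exon length here is the union of all annotated exons, retained introns included, which lowers the value of genes with long alternative transcripts.

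Just above the threshold of 10 CPM, before TMM scaling, stood Rps19bp1 at 23.4, Rpl22l1 at 76.2 and Rpl36al at 90.1 CPM. Just below it stood Rps27rt at 2.45 and Rpl24 at 1.204 CPM, followed by Rpl3l at 0.0428, Rpl39l at 0.00580 and Rpl10l with no count in any mouse. Rpl3l is known from heart and skeletal muscle, and Rpl39l and Rpl10l from the testis. Rpl24 is a standard large-subunit protein, and in the GENCODE M21 annotation 47% of its exon bases are shared with Gm28037 on the same strand, which was listed at 0. Being below the threshold, it was not among the 81. In GENCODE M21, 35 of the 81 share exon bases with another annotated gene. Of these, 2 share at least 50% of them, both on the other strand: Rpl23a with Tlcd1 (59.7%) and Rpl35 with Wdr38 (66.2%). Gene start and end in GENCODE M21 equal those of the count table for 56 of the 81, so the shares may differ for the exons that were counted. The levels of Rpl23a and Rpl35 are uncertain because the strand setting of the counting is not given in the sources used here. The level of Rpl24 is uncertain too, and whether its overlap on the same strand bears on it was not tested.

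Counts on the 81 genes made up 3.69%, 3.47% and 3.42% of the library in Control WT mice, 4.74%, 3.63% and 4.44% in AOM-DSS WT mice, and 4.20%, 4.75% and 4.14% in AOM-DSS Claudin-2TG mice. The group means were 3.52% ± 0.145, 4.27% ± 0.576 and 4.36% ± 0.334 (SD, n = 3 each). All 3 AOM-DSS Claudin-2TG mice lay above the controls, whereas AOM-DSS WT mouse 5 lay within the range of the controls. The share of counts on the mitochondrial genome also moved with the groups, from 2.86% to 3.50% in Control WT to 3.54% to 4.69% in AOM-DSS WT and 4.57% to 5.76% in AOM-DSS Claudin-2TG mice. As a share of all subunit counts, the small subunit took 41.7% to 42.3% in Control WT, 42.6% to 43.3% in AOM-DSS WT and 42.5% to 42.9% in AOM-DSS Claudin-2TG mice. In whole colon, more ribosomal protein mRNA per cell and more cells of a type rich in it cannot be told apart.

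**Figure D1:**
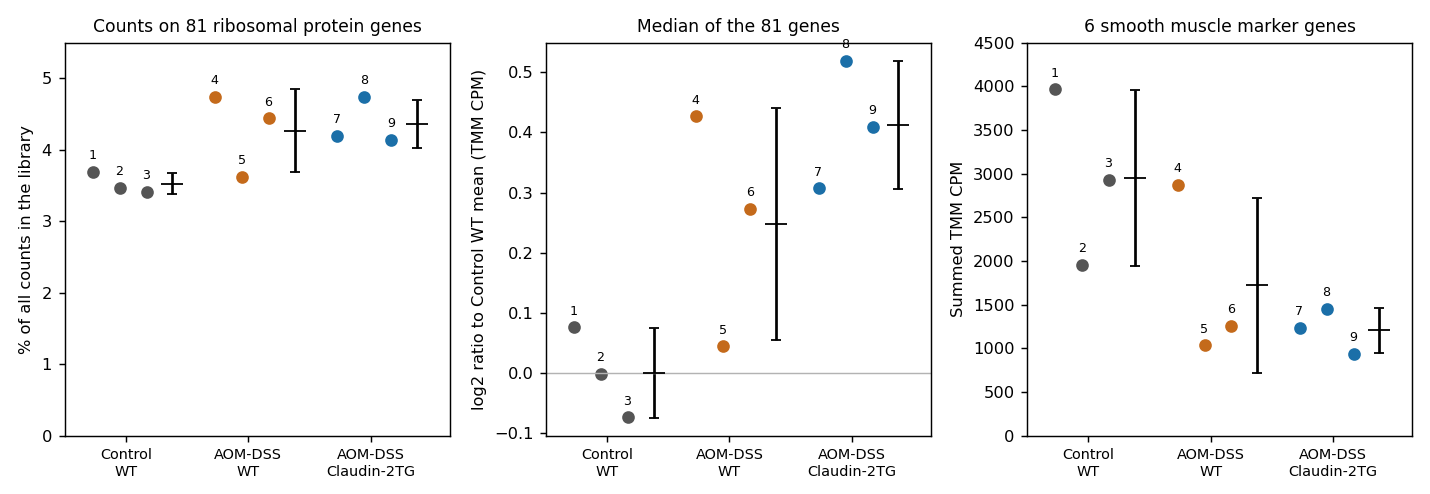
Each point is 1 mouse, numbered as in the text, and black bars give the group mean ± SD (n = 3). Left, counts on the 81 ribosomal protein genes as a percentage of all counts; centre, the median over the 81 genes of the log2 ratio of TMM CPM to the Control WT mean; right, the summed TMM CPM of 6 smooth muscle markers. AOM-DSS WT mouse 5 sits near the controls at 3.63% and 0.04, and the AOM-DSS Claudin-2TG mice sit at 0.31 to 0.52 in the centre panel.

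Relative to the Control WT mean of each gene, the median of the 81 genes was 0.08, -0.00 and -0.07 on the log2 scale in Control WT mice 1, 2 and 3. It was 0.43, 0.04 and 0.27 in AOM-DSS WT mice 4, 5 and 6, and 0.31, 0.52 and 0.41 in AOM-DSS Claudin-2TG mice 7, 8 and 9. All 81 genes lay above the Control WT mean in each AOM-DSS Claudin-2TG mouse and in AOM-DSS WT mouse 4, 76 did so in mouse 6 and 55 in mouse 5. Mouse 8 had the highest level of the 9 for 57 genes, and mouse 3 the lowest for 55. Mouse 5 was the lowest of its group for 76 genes. The coefficient of variation between mice had a median over the genes of 5.77% in Control WT, 14.5% in AOM-DSS WT and 8.21% in AOM-DSS Claudin-2TG mice.

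**Figure D2:**
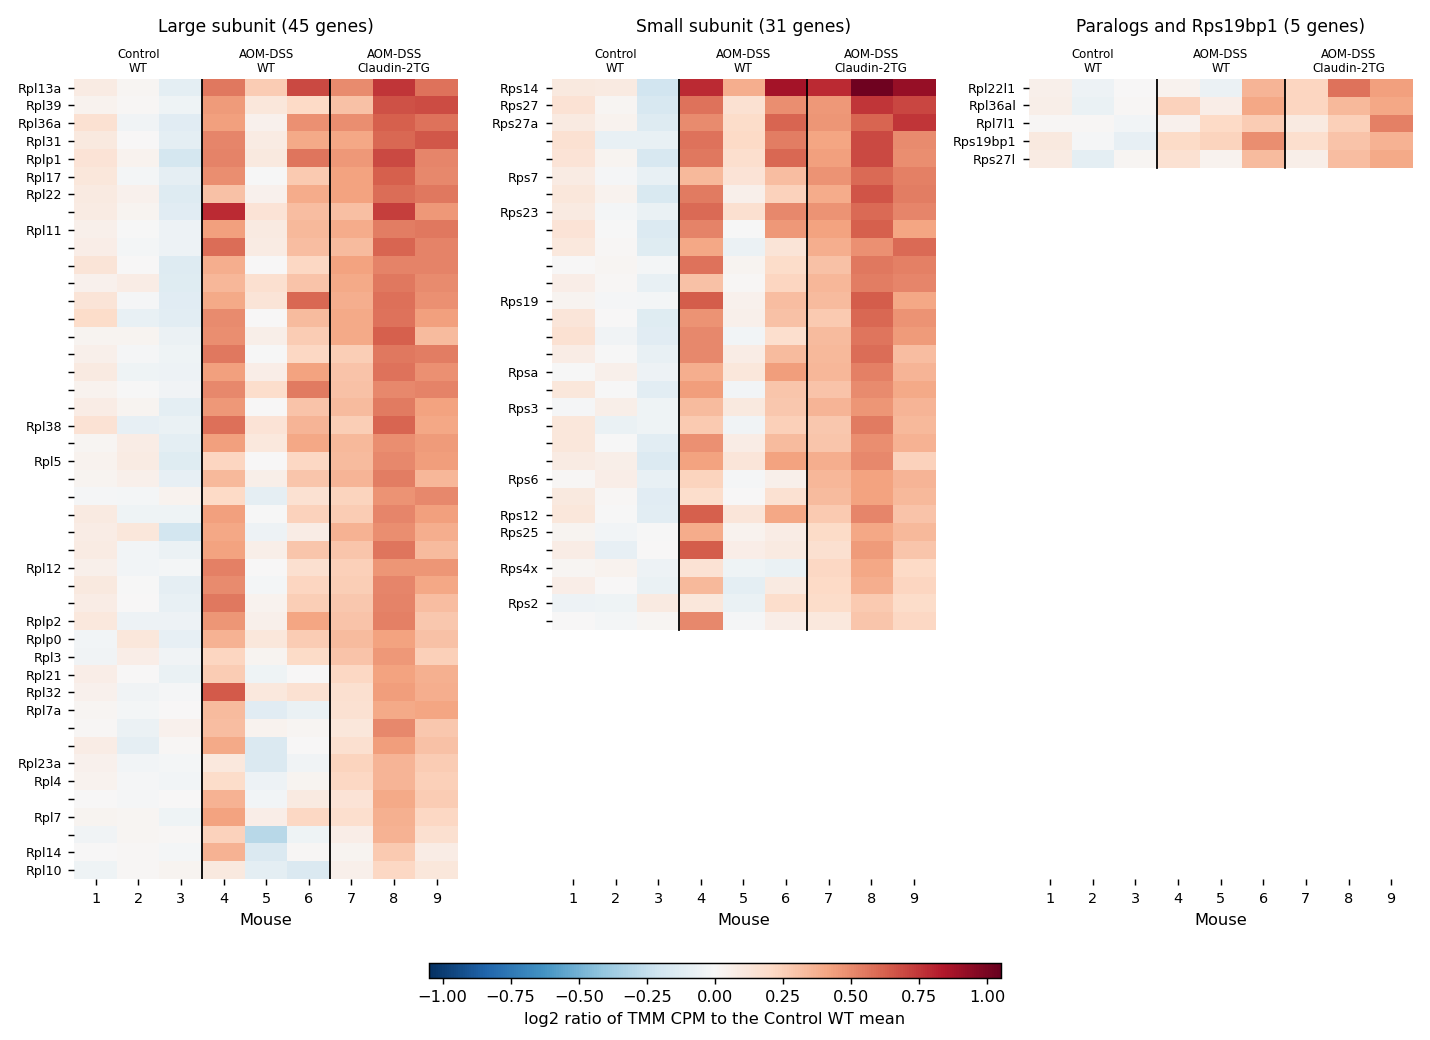
Each cell gives the log2 ratio of a gene's TMM CPM in 1 mouse (columns 1 to 9) to its Control WT mean, in red where higher and blue where lower, with genes ordered by the change between AOM-DSS Claudin-2TG and Control WT and only some rows labelled. The columns of mice 4, 7, 8 and 9 are red for all 81 genes, with the largest ratio, 1.02, for Rps14 in mouse 8, and the column of mouse 5 is pale.

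The first comparison asked how the AOM-DSS regimen changed these genes in wild-type colons. Rps14, a small-subunit protein whose haploinsufficiency causes anaemia in a form of myelodysplastic syndrome, rose, as did Rpl13a, a large-subunit protein that also silences inflammatory mRNAs once released from the ribosome. The other 79 genes did not pass the test, although 80 of the 81 had a positive log2 fold change, with a median of 0.29 against 0.02 over all 15437 genes tested. The 2 calls (2.47% of the 81) compare with 8.04% of all genes called higher, and 30 of the 81 genes had every AOM-DSS WT mouse above every control, against 17.7% of all genes.

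Rps14 was at 743, 739 and 603 CPM in Control WT and at 1194, 902 and 1268 CPM in AOM-DSS WT mice. The groups did not overlap, and mouse 5 was the lowest of the AOM-DSS WT mice. Its log2 fold change was 0.72 (SE 0.17, adjusted p = 0.0304), a 1.64-fold difference. Rpl13a was at 901, 859 and 788 CPM in Control WT and at 1244, 1021 and 1371 CPM in AOM-DSS WT mice, again without overlap. Its log2 fold change was 0.54 (SE 0.15, adjusted p = 0.0455). Over 17 alternative settings, the adjusted p of Rps14 ranged from 9.18e-04 to 0.120 and that of Rpl13a from 0.00475 to 0.172, and each was called in 13. Scaling to the summed counts of the 81 genes is not among these 17. Under it neither gene was called by edgeR (adjusted p = 0.0862 for Rps14 and 0.262 for Rpl13a). Of the genes past the threshold only without adjustment (29 of the 81 had an unadjusted p under 0.05, these 2 included), Rps20, Rps21, Rps23, Rps27, Rps27a and Rpl27 were called by DESeq2, which called 8 genes in all.

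The number of calls changed when single mice were left out. How the share of all genes called changed in those smaller fits is not given here. No gene was called by edgeR without Control WT mouse 1, 2 or 3 or without AOM-DSS WT mouse 6 (15, 6, 3 and 10 of the 81 at an unadjusted p under 0.05), 2 were called without mouse 4, and 7 without mouse 5. Over the 6 such fits, the median log2 fold change of the 81 genes ranged from 0.19 to 0.39. One fit of all 9 mice called 7.

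The second comparison tested the transgene within AOM-DSS mice. None of the 81 genes passed edgeR's test, against 2.19% of all 14888 genes called higher, and 1 (Rpl23a) had an unadjusted p under 0.05 (DESeq2 called 0). The median log2 fold change was 0.14, against 0.01 over all genes and 0.11 over 2062 other genes with a mean of at least 100 CPM. The changes ran from -0.06 to 0.29, with SEs of 0.12 to 0.19. In 18 genes every AOM-DSS Claudin-2TG mouse lay above every AOM-DSS WT mouse (22.2%), against 14.2% of all genes and 28.5% of the other genes with a mean of at least 100 CPM. Among them was Rps6, the small-subunit protein phosphorylated by S6 kinase, at 412, 346 and 364 CPM in AOM-DSS WT and 445, 469.8 and 447 CPM in AOM-DSS Claudin-2TG mice (log2 fold change 0.26, SE 0.12, adjusted p = 0.259). The median depended on mouse 5: it was 0.03 without mouse 5 and 0.25 without mouse 4. Scaled by library size only, it was 0.04, while the median of all genes was -0.09.

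AOM-DSS Claudin-2TG mice were then compared with Control WT, a contrast in which regimen and transgene act together. Here 64 of the 81 genes rose, none fell, and the median log2 fold change was 0.42, or 1.34-fold, against 0.00 over all 15013 genes tested. Of all genes, 3.92% were called higher. In 80 of the 81 every AOM-DSS Claudin-2TG mouse exceeded every control, against 14.9% of all genes, and Rps27l alone overlapped. The 64 genes rose by log2 fold changes of 0.32 to 0.91. The regimen comparison in wild-type mice had wider standard errors (median 0.14 over the 81 genes) than this one (median 0.10). Both comparisons share the Control WT mice, and the direct test between the AOM-DSS groups called none of the genes.

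**Figure D3:**
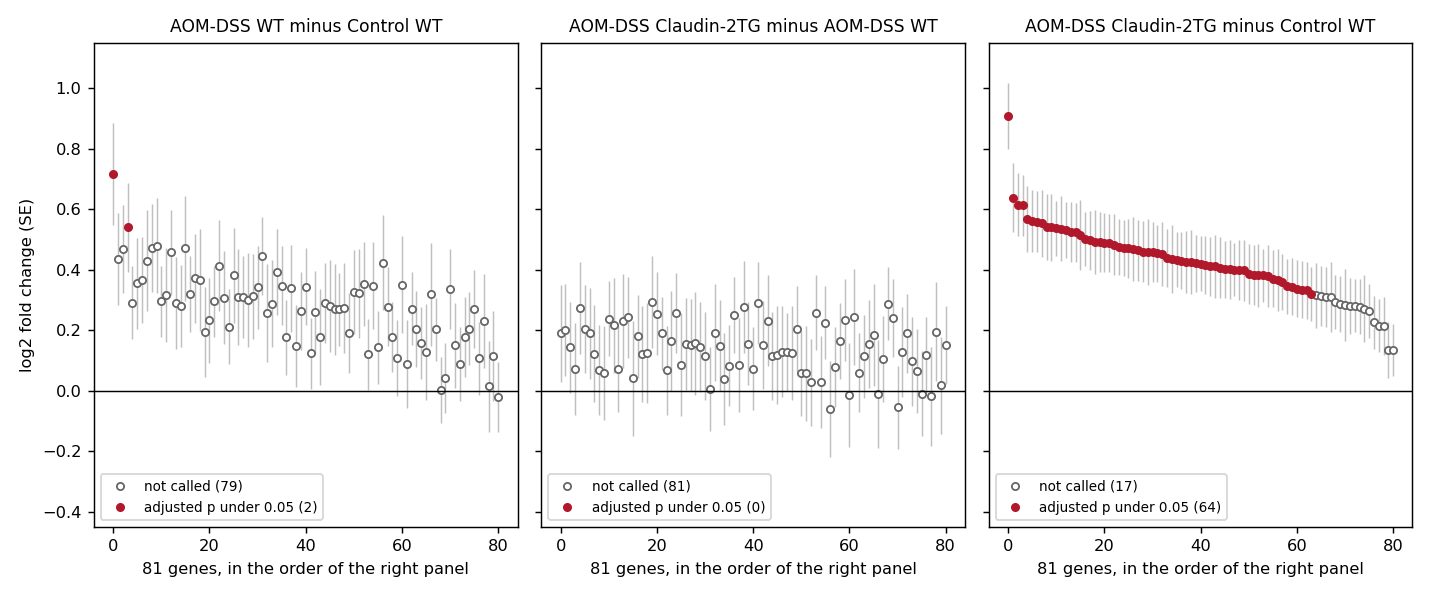
Log2 fold change and SE of the 81 genes in the 3 comparisons, in the gene order of the right panel; filled red points passed an adjusted p of 0.05. In the right panel 64 genes passed and all points lie above 0, in the left panel 2 passed, and in the centre panel none passed, with values between -0.06 and 0.29.

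Rps14 changed most, as 1193, 1403 and 1302 CPM in AOM-DSS Claudin-2TG mice stood against at most 743 CPM in controls (log2 fold change 0.91, SE 0.11, adjusted p = 0.00178). Rps27, a zinc-finger protein of the small subunit, was at 368, 335 and 295 CPM in Control WT and 454, 556 and 537 CPM in AOM-DSS Claudin-2TG mice (log2 fold change 0.64, SE 0.11, adjusted p = 0.00848). Rps27a, made as a fusion with ubiquitin, was at 312, 299 and 267 CPM in Control WT and 402, 446 and 492 CPM in AOM-DSS Claudin-2TG mice (log2 fold change 0.61, SE 0.11, adjusted p = 0.00693). In each of these genes the lowest transgenic mouse was above the highest control. Rpl13a was at 1194, 1426 and 1261 CPM in AOM-DSS Claudin-2TG mice (log2 fold change 0.61, SE 0.10, adjusted p = 0.00599). Rpl39, a small protein that lines the exit tunnel, was at 258, 253 and 244 CPM in Control WT and 311, 399 and 405 CPM in AOM-DSS Claudin-2TG mice (log2 fold change 0.57, SE 0.11, adjusted p = 0.0117). The 5 smallest changes that passed were those of Rps25, Rpl36al, Rpl7a, Rpl32 and Rpl21, between 0.32 and 0.34. Each was called in 6 of the same 17 settings except Rpl21, called in 9.

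The 17 genes that did not pass had log2 fold changes of 0.13 to 0.32. Rpl10, which joins the large subunit late in its assembly, was at 415, 430.3 and 437 CPM in Control WT, 459.9, 398 and 384 CPM in AOM-DSS WT and 443, 496 and 463 CPM in AOM-DSS Claudin-2TG mice (log2 fold change 0.13 between the outer groups, SE 0.09, adjusted p = 0.358). Rpl14 was at 424, 426 and 417 CPM in Control WT, 543, 379 and 425 CPM in AOM-DSS WT and 431, 511 and 445 CPM in AOM-DSS Claudin-2TG mice (log2 fold change 0.14, SE 0.09, adjusted p = 0.389). Both genes overlapped between Control WT and AOM-DSS WT mice. Among the others were Rpl4, Rpl6, Rpl7, Rpl7l1, Rpl13, Rpl23a, Rpl28, Rpl29, Rps2, Rps4x, Rps16, Rps19bp1 and Rps27l.

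**Figure D4:**
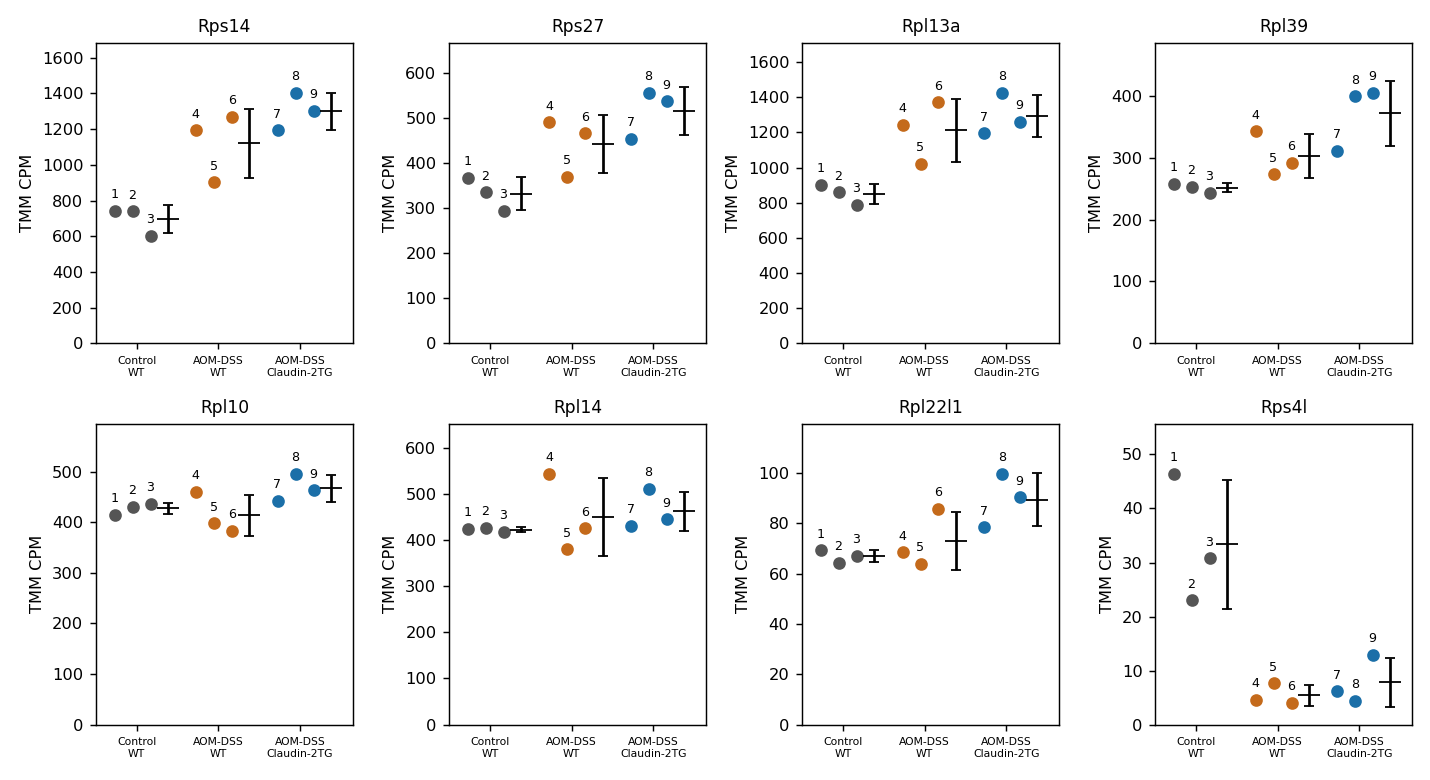
TMM CPM of 8 genes in each mouse (points, numbered), with the group mean ± SD (n = 3), on axes that start at 0. Rps14, Rps27, Rpl13a and Rpl39 separate AOM-DSS Claudin-2TG from Control WT mice by wide margins, Rpl10 and Rpl14 by narrow ones, Rpl22l1 is a paralog of Rpl22, and Rps4l, an annotated pseudogene outside the set, is lower in both AOM-DSS groups.

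This count too changed when single mice were left out. The share of all genes called in these smaller fits is not given here. Without Control WT mouse 1, the Xist-positive one, 46 genes were called, without mouse 2 36, and without mouse 3 14. Leaving out AOM-DSS Claudin-2TG mouse 7 left 59, mouse 8 12 and mouse 9 36. The median log2 fold change stayed between 0.36 and 0.46 over these fits. In 11 genes (Rpl11, Rpl13a, Rpl17, Rpl22, Rpl31, Rpl36a, Rps14, Rps23, Rps27, Rps27a and Rps7) the call held in each of them. A fit of all 9 mice called 7, the same number as in the regimen comparison. Without scaling factors other than library size, 32 were called and the median was 0.31, while the median of all genes moved to -0.11, so that the 81 genes stood 0.42 above the median of all genes under either scaling.

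In the large subunit, 36 of 45 genes rose between Control WT and AOM-DSS Claudin-2TG mice (median log2 fold change 0.42, from 0.13 to 0.61), and in the small subunit 26 of 31 (median 0.42, from 0.21 to 0.91). These shares of 80% and 83.9% stood beside 79% of the 81 genes and 3.92% of all genes. The regimen comparison called 1 gene in each subunit, with medians of 0.29 and 0.31. The stalk, which recruits elongation factors, is made of Rplp0, Rplp1, Rplp2 and Rpl12, and all 4 rose in AOM-DSS Claudin-2TG mice, where 64 of the 81 genes did. Rplp1 had the largest change of them, from 994, 924 and 789.6 CPM in Control WT to 1232, 1449 and 1278 CPM (log2 fold change 0.55, SE 0.11, adjusted p = 0.0133). The smallest was that of Rplp0, the most abundant gene of the set, from 1528, 1694 and 1471 CPM to 1966, 2092 and 1937 CPM (log2 fold change 0.36, SE 0.09, adjusted p = 0.0353).

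Rpl5 and Rpl11, which enter the large subunit together with a small ribosomal RNA and bind Mdm2 when free, both rose in AOM-DSS Claudin-2TG mice, by log2 fold changes of 0.43 and 0.50. Rpl11 was at 358, 343 and 332 CPM in Control WT, 464, 367 and 435 CPM in AOM-DSS WT and 450.2, 500.4 and 506 CPM in AOM-DSS Claudin-2TG mice, so that both AOM-DSS groups lay wholly above the controls. At the channel through which mRNA enters, Rps3 rose by 0.40 and Fau, which encodes a further small-subunit protein fused to a ubiquitin-like one, by 0.53, and Rps2 had a log2 fold change of 0.23 (adjusted p = 0.132). Of 8 proteins around the exit of the peptide tunnel, 7 (87.5%, against 79% of the 81 genes and 3.92% of all genes) rose (Rpl17, Rpl19, Rpl22, Rpl26, Rpl31, Rpl35 and Rpl39), with a median over the 8 of 0.51. Rpl23a, which docks the signal recognition particle there, was at 98.6, 93.3 and 94.2 CPM in Control WT, 103, 85.8 and 92.7 CPM in AOM-DSS WT and 112, 122 and 115 CPM in AOM-DSS Claudin-2TG mice (log2 fold change 0.29, SE 0.09, adjusted p = 0.0653).

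Several proteins are known for inherited disease or roles outside the ribosome. Rps19, mutated in Diamond-Blackfan anaemia, was at 273, 266 and 264 CPM in Control WT, 416, 276 and 335 CPM in AOM-DSS WT and 338, 415 and 356 CPM in AOM-DSS Claudin-2TG mice (log2 fold change 0.47 between the outer groups, SE 0.10, adjusted p = 0.0152). Rpsa, also known as the laminin receptor, rose by 0.42 and Rpl38, needed for translation of Hox mRNAs, by 0.43. Rps4x, encoded on X, had a log2 fold change of 0.29 (SE 0.09, adjusted p = 0.0769). Its levels in Control WT were 515 CPM in the Xist-positive mouse and 522 and 489 CPM in the other two.

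Paralogs were present at lower levels than the standard subunits they resemble. Per kilobase of exon, Rpl22l1 stood at 38.4 and Rpl22 at 123 CPM per kb, Rpl36al at 66.6 and Rpl36a at 139, Rpl7l1 at 34.7 and Rpl7 at 274, and Rps27l at 132 and Rps27 at 412. Rpl22l1 was at 69.3, 64.4 and 67.2 CPM in Control WT, 68.5, 64.0 and 85.9 CPM in AOM-DSS WT and 78.4, 99.6 and 90.4 CPM in AOM-DSS Claudin-2TG mice (log2 fold change 0.42 between the outer groups, SE 0.11, adjusted p = 0.0304). Rpl36al rose as well, by 0.33 (adjusted p = 0.0488, with a range of 0.0239 to 0.159 over 17 settings, of which 6 called it), whereas Rpl7l1 and Rps27l, a target of p53, had log2 fold changes of 0.31 and 0.27 that did not pass. Near-identical sequences could move reads between Rpl36a and Rpl36al or between Rps27 and Rps27l. Rps4l moved the other way. It is annotated as a transcribed processed pseudogene and so was not among the 81, and it fell from 46.4, 23.0 and 30.8 CPM in Control WT to 4.57, 7.65 and 4.08 CPM in AOM-DSS WT mice (log2 fold change -2.58, SE 0.33, adjusted p = 0.00774). In AOM-DSS Claudin-2TG mice it was at 6.13, 4.41 and 12.9 CPM (log2 fold change against Control WT -2.11, SE 0.47, adjusted p = 0.0491).

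Of 3 listed genes that encode ribosomal proteins but lie outside the naming rule, 2 (Fau and Rack1) rose in AOM-DSS Claudin-2TG against Control WT mice. That is 66.7% of them, against 3.92% of all genes. Fau was at 411, 396 and 330.0 CPM in Control WT and 513, 592 and 536 CPM in AOM-DSS Claudin-2TG mice. Rack1, the signalling scaffold on the small subunit, was at 1507, 1633 and 1483 CPM in Control WT and 1859.9, 2255 and 2063 CPM in AOM-DSS Claudin-2TG mice (log2 fold change 0.42, SE 0.10, adjusted p = 0.0231). Rows named as processed copies of ribosomal protein genes, 274 in number, held 0.0372% to 0.0548% of the counts, or 1.07 to 1.16 counts per 100 on the 81 genes. Adding each copy to its parent left 64 genes called. How multi-mapping reads were handled is not given in the sources used here, and 58 of the 81 genes have at least 1 such copy.

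Genes that build or serve the ribosome were followed as fixed lists. Of 78 ribosome biogenesis genes, 10 (12.8%, against 8.04% of all genes) rose with the regimen in wild-type mice and none fell (median log2 fold change 0.23), among them Rrp9 (0.68) and Mphosph10 (0.59) of the U3 particle that processes the small-subunit RNA, Rrs1 (0.58) and Nop56 (0.53). In AOM-DSS Claudin-2TG against Control WT mice 2 (2.56%, against 3.92% of all genes) rose, Rrs1 (0.45) and Eif6 (0.42), which keeps the subunits apart, with a median of 0.15. None was called between the AOM-DSS groups by edgeR (3 at an unadjusted p under 0.05), where the median was -0.07. Of 29 initiation factors, 5 (17.2%) rose in AOM-DSS Claudin-2TG against Control WT mice, led by Eif1 (0.58, adjusted p = 0.0176), which guards start codon choice, followed by the Eif3 subunits e, k, m and h. Eef1b2 (0.43) and Btf3 (0.35) rose among 11 elongation factors and other TOP mRNAs (18.2%). The most abundant of those did not pass: Eef1a1 was at 3324, 3579 and 3725 CPM in Control WT and 3858, 4041 and 3508 CPM in AOM-DSS Claudin-2TG mice (adjusted p = 0.510), and a run of 10 pyrimidines spans its annotated start.

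Among 8 host genes of small nucleolar RNAs, Gas5 (0.61), Zfas1 (0.61) and Snhg8 (0.79) rose with the regimen (37.5%, against 8.04% of all genes). Zfas1 (0.53) and Snhg8 (0.65) rose in AOM-DSS Claudin-2TG against Control WT mice (2 of 8, against 3.92% of all genes). Of 21 growth regulators, 1 (4.76%) rose in each of these comparisons: Atf4, a transcription factor of the amino acid response, changed by 0.73 (adjusted p = 0.0109) and 0.54 (adjusted p = 0.00807). Deptor, an inhibitor of mTOR, fell with the regimen by 0.62. Myc, a driver of ribosome production, was at 48.1, 36.8 and 43.4 CPM in Control WT, 34.4, 52.5 and 58.0 CPM in AOM-DSS WT and 37.5, 35.0 and 48.5 CPM in AOM-DSS Claudin-2TG mice, with overlap between all groups (adjusted p = 0.756 between the outer groups). Larp1, the TOP-binding repressor, had a log2 fold change of -0.41 with the regimen (adjusted p = 0.0779), and Mtor, Rptor, Rps6kb1 and Eif4ebp1 did not pass in any comparison. Of the 77 tested genes for the mitochondrial ribosome, a separate machine inside mitochondria, 7 rose in AOM-DSS Claudin-2TG against Control WT mice, led by Mrpl20 (0.58). That is 9.09% of them, against 3.92% of all genes, and the median over these 77 genes was 0.14.

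**Figure D5:**
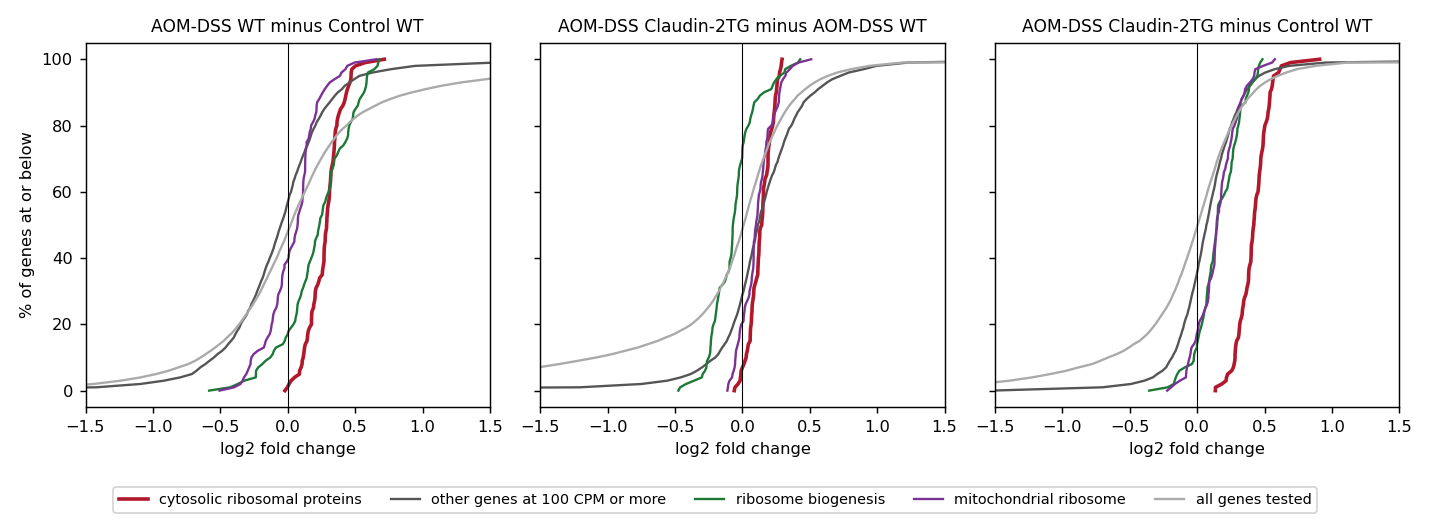
Cumulative share of genes (vertical axis, %) at or below each log2 fold change (horizontal axis) in the 3 comparisons, for the 81 cytosolic ribosomal protein genes, other genes with a mean of at least 100 CPM, ribosome biogenesis genes, mitochondrial ribosomal proteins and all genes tested. The red curve of the 81 genes is steep and lies to the right of 0, with medians of 0.29, 0.14 and 0.42, against 0.07 over the other genes of at least 100 CPM in the right panel.

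The 81 genes were set against 2062 other genes with a mean of at least 100 CPM, a set not matched to them in level. Of these, 140 (6.79%) were called higher and 44 lower between AOM-DSS Claudin-2TG and Control WT mice. Their median log2 fold change was 0.07. The corresponding medians were -0.05 for the regimen in wild-type mice and 0.11 between the AOM-DSS groups. When libraries were scaled to the summed counts of the 81 genes, so that only differences among them remained, their median change was -0.00 in AOM-DSS Claudin-2TG against Control WT mice, 42 of the 81 were negative and 3 genes passed: Rps14 higher (log2 fold change 0.49, SE 0.10, adjusted p = 0.00422), and Rpl10 (-0.29, SE 0.10, adjusted p = 0.0389) and Rpl14 (-0.29, SE 0.10, adjusted p = 0.0349) lower. Under this scaling the median log2 fold change of all genes was -0.42, and the adjustment ran over all genes. Rpl10 and Rpl14 had unadjusted p-values of 0.0163 and 0.0140 in edgeR's test. Their calls cannot be set beside those under TMM scaling, and the share of all genes called is not given here. Across the 81 genes, Spearman's rho of the TMM-scaled change between these groups was -0.05 with mean CPM and -0.05 with exon length. It is given without a test because the genes share the same 9 libraries.

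Markers of other cell types moved with the groups. Of all genes, 6.92% were called lower with the regimen, 7.35% between the AOM-DSS groups and 6.07% in AOM-DSS Claudin-2TG against Control WT mice. The shares called higher were 8.04%, 2.19% and 3.92% in the same order. The summed level of 6 smooth muscle genes was 1954 to 3966 CPM in Control WT, 1036 to 2875 CPM in AOM-DSS WT and 939 to 1452 CPM in AOM-DSS Claudin-2TG mice, and 2 of the 6 (Acta2 and Myh11) fell in the last group against controls. All 5 glial and neuronal markers fell too in that comparison, and 1 fell with the regimen, with sums of 20.7 to 33.9, 7.56 to 16.8 and 7.70 to 11.8 CPM in the 3 groups, so that both AOM-DSS groups lay below the controls. Among 4 endothelial markers 3 fell, with sums of 29.3 to 37.3, 31.6 to 39.6 and 17.99 to 21.3 CPM in the 3 groups, and among 6 fibroblast markers 1 fell, with sums of 292 to 422, 446 to 1119 and 181 to 260.4 CPM. Of 6 tested crypt base and cycling genes, 1 rose and 1 fell, with sums over the 7 listed of 441 to 522, 271 to 499 and 329 to 444 CPM. Of 9 epithelial markers 1 rose (Krt8, 0.43), with sums of 12783 to 14031 CPM in Control WT, 12007 to 15701 CPM in AOM-DSS WT and 14022 to 18243 CPM in AOM-DSS Claudin-2TG mice. Immune markers followed another order: sums of 7 myeloid genes were 40.3 to 77.6, 90.4 to 207 and 18.9 to 43.5 CPM in the 3 groups, and those of 9 B and T cell genes 5.98 to 28.8, 46.5 to 54.6 and 9.38 to 19.8 CPM. With the regimen, 5 of the 7 myeloid and 4 of the 9 B and T cell genes were called higher. Between the AOM-DSS groups, 4 of 6 tested myeloid genes and 5 of the 9 B and T cell genes were called lower. Of 4 plasma cell genes, 2 rose with the regimen and 2 were lower in AOM-DSS Claudin-2TG than in AOM-DSS WT mice, with sums of 572 to 604, 668 to 1089 and 529 to 668 CPM. Of 4 goblet cell genes, 1 fell with the regimen and 1 was higher in AOM-DSS Claudin-2TG than in AOM-DSS WT mice, with sums of 10349.5 to 11539, 7125 to 9136 and 8694 to 13803 CPM. Within AOM-DSS WT, mouse 4 had the highest level of the 81 genes together with the highest smooth muscle and epithelial sums and the lowest myeloid sum, and mouse 5 the lowest level with the lowest smooth muscle sum and the highest fibroblast sum (1119 CPM, against 446 and 511 CPM in mice 4 and 6). The part of tissue composition and of the mitochondrial share in the change of the ribosomal protein genes was not tested.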

How the data were processed

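The authors sequenced colon RNA from 9 mice over 2 lanes per library and deposited raw counts per gene (18 columns, build GRCm38, featureCounts of the Subread package). The labels name HISAT2 as the aligner and the study's methods TopHat2, and versions, strand setting and treatment of multi-mapping reads are not given in the sources used here. Lanes differed by about sampling noise (chi-square per degree of freedom 0.995 to 1.06) and were summed. Symbols and types came from GENCODE M21 (47310 of 47729 identifiers). Each comparison used its 6 mice in edgeR 4.0.16 (R 4.3.3), with filterByExpr, TMM and the quasi-likelihood test, adjusted by Benjamini-Hochberg over all genes tested, at 0.05. Fits were tested on simulated data. DESeq2 1.42.0, limma voom 3.58.1, other scalings and filters, single lanes and leaving out each mouse were alternatives. Whether mice are independent animals is taken from the labels, and p-values measure the spread between these samples. The genes and lists were chosen with earlier results of these data known. Genes named are the 5 largest and smallest called changes, the most abundant, and fixed functional groups, paralogs and pathway lists. Rps7 and genes in counts of called members were named after their values were seen. Certain genes are not reported here by name.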

Additional observations from a re-analysis of the deposited data

How the results depend on the processing

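Between AOM-DSS WT and Control WT mice, the 2 calls became 8 with DESeq2, 7 with all 9 mice in 1 fit, 4 with voom and sample weights (chosen after seeing the data), 0 (1 at an unadjusted p under 0.05) with libraries scaled to the 81 genes, and 0 to 7 with 1 mouse left out; the median log2 fold change was 0.00226 after that scaling and 0.19 to 0.39 with 1 mouse left out. Between AOM-DSS Claudin-2TG and Control WT mice, the 64 calls became 32 with library size only, 7 with all 9 mice, 3 after scaling to the 81 genes and 12 to 59 with 1 mouse left out. The median was 0.36 to 0.46 with 1 mouse left out and -0.00122 after scaling to the 81 genes, which by construction removes their shared change. That scaling made 42 of the 81 changes negative, among them Rps25 (-0.10), Rpl36al (-0.0871), Rpl7a (-0.0879), Rpl32 (-0.0846), Rpl21 (-0.0752), Rpl10 (-0.29) and Rpl14 (-0.29). The cause of the other shifts was not tested. Between the AOM-DSS groups no setting called a gene, with 0 to 17 at an unadjusted p under 0.05 and medians of 0.03 to 0.25 with 1 mouse left out. The remaining 111 counts, medians and shares stayed on the same side. No paired analysis was possible because the groups share no replicate numbers. The number of mice, 3 a group, limits the precision, and the parts of counting error and of the spread between mice were not separated.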
